A study of Mus musculus with 14 samples.

Results

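The 43 genes described here act at the start of S phase or at the replication fork, and form a list of standard G1/S and S-phase genes matched by symbol to the mouse annotation. The rule for the list uses no measured value, but the list was drawn up with earlier results of these data known, so its directions are not independent evidence. All 43 were among the 15119 genes of the deposited table, and all 43 passed the filter on low values that left 15102 genes for testing. RNA was sequenced from GFP-positive cells of the adult mouse dentate gyrus, the neurogenic region of the hippocampus, sorted into classes by their signal for reactive oxygen species (ROS). The sorter read dihydroethidium, a dye that becomes fluorescent when oxidised. The classes were ROS+ with 5 libraries, ROS++ with 5 libraries and ROS+++ with 4 libraries, and the question, per the series' title, is how precursor classes defined by ROS content differ in gene expression. All libraries came from untreated mice with the transgenic background B6.Cg-Tg(Nes-EGFP)1Yamm, in which enhanced green fluorescent protein is driven by Nestin regulatory elements, so that the sort selects cells in which that transgene is active and not a cell type as such. The labels used here give no age in weeks, sex, number of animals, pooling or batch. Nothing in them says that the libraries of a class came from separate animals, so the p-values measure the spread between these libraries, which may be technical.

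DNA replication is prepared in G1, when the loader Cdc6 and Cdt1 place the ring-shaped MCM2-7 helicase on origins. It starts in S phase, when cyclin E kinase and Cdc45 and GINS turn the helicase on, and polymerases, the sliding clamp, nucleotide synthesis and histone chaperones then work together at the fork. Many of these genes are transcribed by E2F factors once the retinoblastoma proteins are inactivated, so that their mRNAs are abundant in dividing cells and scarce in quiescent ones. In the adult dentate gyrus, neural stem cells are mostly quiescent and divide to give rapidly cycling progenitors, and oligodendrocyte precursors also divide.

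The listed genes held 20832009 to 25313902 reads in ROS+ libraries, 18325361 to 23454022 in ROS++ libraries and 12704227 to 20998589 in ROS+++ libraries. Levels are given in CPM, a gene's reads per 1000000 reads of the library over the listed genes. Differences are given as differences in log2(CPM + 1) with their standard error, which understates the change of genes with low levels. A level of 0 allows up to 0.144 CPM in any ROS+ library, 0.164 CPM in any ROS++ library and 0.236 CPM in any ROS+++ library, the level of 3 reads, and this limit covers counting error only. Marker genes of other cells differed between the classes. The summed level of 12 mural cell genes was 201 to 724 CPM in ROS+ libraries, 8405 to 24854 CPM in ROS++ libraries and 54755 to 63520 CPM in ROS+++ libraries. The 13 listed microglia and macrophage genes, of 14 sought, summed to 3.71 to 16.8 CPM in ROS+ libraries, 970.3 to 2601 CPM in ROS++ libraries and 780.4 to 3279 CPM in ROS+++ libraries. The 10 endothelial genes summed to 113 to 306 CPM in ROS+ libraries, 193 to 586 CPM in ROS++ libraries and 1337 to 1618 CPM in ROS+++ libraries. The 10 oligodendrocyte lineage genes summed to 3542 to 7698 CPM in ROS+ libraries, 4464 to 11222 CPM in ROS++ libraries and 453 to 744 CPM in ROS+++ libraries. The 12 neural precursor genes summed to 8678 to 13372 CPM in ROS+ libraries, 1325 to 2459 CPM in ROS++ libraries and 409.8 to 572 CPM in ROS+++ libraries. No marker was at 0 in every library of a class. Cx3cr1, C1qa, C1qc, Tyrobp and Aif1 were at 0 in at least 1 ROS+ library, and so was Tfap2c. Cldn5 was at 0 in at least 1 ROS++ library and Insm1 in at least 1 ROS+++ library. The reporter's namesake Nes averaged 16.6 ± 4.63 CPM in ROS+ libraries, 95.5 ± 18.8 CPM in ROS++ libraries and 227 ± 77.7 CPM in ROS+++ libraries (SD, n = 5, 5 and 4, as for all means that follow). Eomes, a marker of intermediate progenitors, averaged 46.6 ± 12.7, 68.8 ± 14.2 and 0.179 ± 0.0437 CPM in the same order of classes. The part of these markers in the differences of the S-phase genes was not tested, and in sorted bulk RNA fewer cells in S phase and less S-phase RNA per cell cannot be told apart.

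The DNA just before a RefSeq transcription start is shown for 5 members with large differences between ROS+++ and ROS++, to show the letters that E2F proteins are known to bind beside the values that follow. RefSeq start-site windows on build GRCm38.p6, from 250 bases before to 50 bases after a start, were matched for 33 of the 43 members. One of the letters TTTCCCGC, TTTCGCGC, TTTGCCGC or TTTGGCGC, on either strand and with overlapping matches counted, was in a window of 14 of these 33 genes (42.4%). The share was 2.60% of all 27025 genes with a window and 4.62% of the 10876 tested genes with one. The shorter CCAAT, also on either strand, was in 21 of the 33 (63.6%) and in 41.1% of all genes with a window. Each stretch of 120 bases is written 5′ to 3′ along the gene's strand, with E2F letters in capitals. Cdc6, the helicase loader, is shown from chr11:98908003-98908122 (plus strand), where another annotated transcript of the gene has an intron, and holds 1 site in reverse orientation. Dtl, which directs the destruction of Cdt1 in S phase, is shown from chr1:191575545-191575664 (minus strand) with 1 site just before the start. Uhrf1, which brings maintenance DNA methylation to new strands, is shown from chr17:56304118-56304237 (plus strand), which also lies in an intron of another annotated transcript, with 1 site. Mcm5, a helicase subunit, is shown from chr8:75109346-75109465 (plus strand), where 2 sites overlap. Rrm2, the regulated subunit of ribonucleotide reductase, is shown from chr12:24708104-24708223 (plus strand) as a member with none of these letters in its window.
Cdc6: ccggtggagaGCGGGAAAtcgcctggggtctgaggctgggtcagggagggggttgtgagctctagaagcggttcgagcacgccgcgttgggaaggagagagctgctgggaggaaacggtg
Dtl: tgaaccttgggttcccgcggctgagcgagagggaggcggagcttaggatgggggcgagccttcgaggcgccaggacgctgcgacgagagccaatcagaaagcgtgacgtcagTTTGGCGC
Uhrf1: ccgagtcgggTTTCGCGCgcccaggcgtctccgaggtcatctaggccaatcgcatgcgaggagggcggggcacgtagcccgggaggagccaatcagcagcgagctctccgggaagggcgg
Mcm5: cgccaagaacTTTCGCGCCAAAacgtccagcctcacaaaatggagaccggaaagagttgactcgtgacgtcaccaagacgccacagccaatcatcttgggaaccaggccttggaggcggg
Rrm2: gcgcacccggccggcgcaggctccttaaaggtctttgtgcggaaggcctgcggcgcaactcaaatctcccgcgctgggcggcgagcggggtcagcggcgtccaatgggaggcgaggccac
A match is a description of letters and not of a bound site. The 14 members with a match had a median difference of -2.30 between ROS+++ and ROS++ (range -4.65 to -0.18). The 19 matched members without one had a median of -2.03 (range -4.90 to 0.20), and the ranges overlapped.

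As a group, the replication genes had their highest levels in ROS++ cells and their lowest in ROS+++ cells. In limma's test with Benjamini-Hochberg adjustment over all tested genes, at an adjusted p under 0.05, 20 of 43 members were higher in ROS++ than in ROS+ and 0 were lower, where 16.4% of all tested genes were higher and 13.2% lower. At an unadjusted p under 0.05, 1 member, Mcm7, was lower in ROS++, and limma-voom also called 1 lower. Of the 43 differences, 39 were positive, with a median of 0.76 against -0.03 for all tested genes. In ROS+++ against ROS+, 25 members were lower and 1, Slbp, was higher, with 40.0% of all tested genes lower and 19.2% higher, and the median was -1.30 against -0.44 for all tested genes. In ROS+++ against ROS++, 37 members were lower and 0 higher, with 29.2% of all tested genes lower and 9.89% higher, and the median was -2.13 against -0.34. At an unadjusted p under 0.05, 38 were lower and 0 higher, and limma-voom called 37 lower and 0 higher. For the unadjusted and limma-voom counts here and in later paragraphs, the share of all tested genes is not given. The limma F-test for any difference among the classes was passed by 39 of 43 members and by 61.5% of all tested genes, and Fen1, Dscc1, Blm and Casp8ap2 did not pass it.

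The order of the class means was shared by most members. Of all 43 members, 37 passed the F-test and had their highest mean in ROS++, as did 2191 of all 15102 tested genes (14.5%). The order ROS++ highest and ROS+++ lowest, again with the F-test passed, was held by 35 members, 81.4% of the list, against 9.95% of all tested genes. For Gmnn and Ung the peak was in ROS++ and the lowest mean in ROS+. Mcm7 peaked in ROS+ and Slbp in ROS+++, with their lowest means in ROS+++ for Mcm7 and in ROS+ for Slbp. Every ROS++ library lay above every ROS+ library for 20 members (12.1% of all tested genes did so). Every ROS+++ library lay below every ROS+ library for 21 members (33.2% of all tested genes), and below every ROS++ library for 35 members (19.5% of all tested genes). Library totals set the scale of these values, and scaling factors that assume most genes alike raised the median of all genes by 0.27 to 0.40 in ROS+++ against ROS+ and by 0.25 to 0.37 in ROS+++ against ROS++. Set against the median of all genes, the members' median stayed between -0.87 and -0.85 in ROS+++ against ROS+ under those factors. In ROS+++ against ROS++ it was -1.80 with library totals and -1.77 to -1.75 under those factors.

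**Figure D1:**
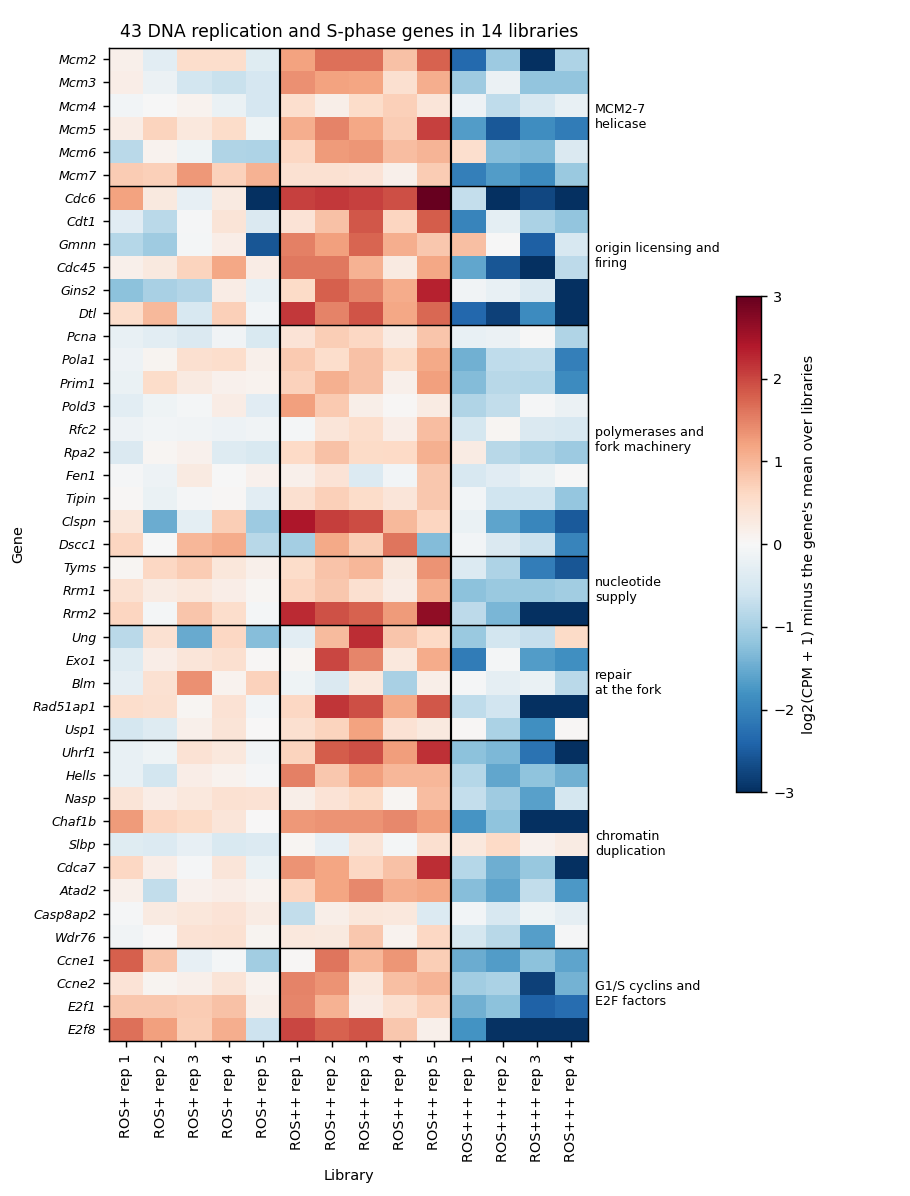
Heat map of 43 genes (rows, ordered by role) in 14 libraries (columns, 5 ROS+, 5 ROS++ and 4 ROS+++), coloured by log2(CPM + 1) minus the gene's mean over all libraries, with the colour ending at 3 in either direction. The ROS++ block is red for most genes and the ROS+++ block blue, while Slbp and Casp8ap2 are pale throughout and Mcm7 is reddest in ROS+ libraries.

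The genes of the MCM2-7 helicase, the motor that unwinds DNA at the fork, fell in ROS+++ cells. There 6 of 6 were lower than in ROS++ cells (29.2% of all tested genes). In ROS++ cells, 5 of 6 were higher than in ROS+ cells (16.4% of all tested genes). Mcm2 had 22.0, 15.6, 28.9, 29.0 and 15.1 CPM in ROS+ libraries 1 to 5, 46.8, 64.6, 64.2, 37.3 and 69.4 CPM in ROS++ libraries 1 to 5, and 3.10, 8.69, 1.05 and 9.84 CPM in ROS+++ libraries 1 to 4. The 3 classes did not overlap for Mcm2. It differed by 1.33 ± 0.39 between ROS++ and ROS+ (adjusted p = 0.0151), by -2.03 ± 0.41 between ROS+++ and ROS+ (adjusted p = 0.000408) and by -3.36 ± 0.41 between ROS+++ and ROS++ (adjusted p = 6.87e-06). Mcm5, a partner in the ring, had 47.8, 66.4, 51.6, 60.7 and 37.9 CPM in ROS+ libraries, 88.3, 116, 93.5, 70.5 and 174 CPM in ROS++ libraries, and 12.2, 6.18, 10.6 and 8.89 CPM in ROS+++ libraries. The classes were again separate, and the difference between ROS+++ and ROS++ was -3.35 ± 0.26 (adjusted p = 8.44e-08), close to that of Mcm2.

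Mcm3, Mcm4 and Mcm6 separated ROS++ from both other classes, whereas their ROS+++ and ROS+ libraries overlapped. Mcm3 had 45.2, 34.3, 26.2, 24.0 and 27.1 CPM in ROS+ libraries, 102, 90.8, 89.5, 55.2 and 84.2 CPM in ROS++ libraries, and 18.1, 34.4, 16.7 and 16.6 CPM in ROS+++ libraries. Mcm4 had 86.7, 91.5, 98.9, 79.8 and 65.0 CPM in ROS+ libraries, 131, 104, 137, 151 and 120.3 CPM in ROS++ libraries, and 83.8, 54.3, 66.5 and 79.7 CPM in ROS+++ libraries. Mcm6 had 16.04, 31.0, 26.3, 14.8 and 14.6 CPM in ROS+ libraries, 44.6, 70.5, 72.7, 55.6 and 59.5 CPM in ROS++ libraries, and 40.9, 11.2, 10.9 and 20.8 CPM in ROS+++ libraries. The difference between ROS++ and ROS+ was 1.41 ± 0.24 for Mcm3, 0.61 ± 0.16 for Mcm4 and 1.56 ± 0.32 for Mcm6, with adjusted p of 0.000239, 0.00636 and 0.00129. The difference between ROS+++ and ROS+ did not pass the test for any of these 3 genes, at -0.56 ± 0.26 for Mcm3 (adjusted p = 0.0696), -0.25 ± 0.16 for Mcm4 (adjusted p = 0.199) and -0.11 ± 0.34 for Mcm6 (adjusted p = 0.802). Without ROS+++ library 2, which was the highest of its class, Mcm3 passed at -0.80 (adjusted p = 0.0109). The sign for Mcm4 and Mcm6 turned positive with the other scaling factors, and that for Mcm6 also without ROS+ library 2, at 0.05, and without ROS+++ library 2 or 3, at 0.11 and 0.12.

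Mcm7 was the helicase gene with another order. It had 208, 201, 300.0, 197 and 251 CPM in ROS+ libraries, 168, 168, 161, 136 and 206 CPM in ROS++ libraries, and 28.4, 37.3, 32.2 and 55.4 CPM in ROS+++ libraries. ROS+++ lay below both other classes, at -2.59 ± 0.18 against ROS+ (adjusted p = 2.10e-09) and -2.13 ± 0.18 against ROS++ (adjusted p = 1.87e-07), and the ROS++ libraries mostly lay below the ROS+ libraries with some overlap. The difference of -0.46 ± 0.17 between ROS++ and ROS+ missed the threshold (adjusted p = 0.0561) and passed in 7 of 26 alternative analyses. Among these were the ones without ROS++ library 5 (-0.53, adjusted p = 0.0323), without ROS+++ library 1 (adjusted p = 0.0426) and without ROS+++ library 4 (adjusted p = 0.0251). Exons of Cops6 and Ap4m1 on the other strand overlap those of Mcm7 (ENSMUSG00000029730, chr5:138164583-138172422). The larger of these overlaps covers 321 of the 2962 exon bases of Mcm7. Reads from the overlaps cannot be told apart in libraries made without a strand mark.

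Per length of exon, the helicase subunits also changed order between the classes. Mcm7 had 78.2 CPM per kb in ROS+, 56.6 in ROS++ and 12.9 in ROS+++ cells as class means, and Mcm4 had 23.5, 35.9 and 19.8 CPM per kb in the same order. Mcm7 thus had the highest level per length of the 6 in ROS+ and ROS++ cells, and Mcm4 in ROS+++ cells. Mcm5 stood at 15.3, 31.4 and 2.74 CPM per kb, Mcm3 at 10.3, 27.8 and 7.07, Mcm2 at 6.56, 16.7 and 1.68, and Mcm6 at 4.69, 13.8 and 4.78. Mcm6 was the lowest in ROS+ and ROS++ cells and Mcm2 the lowest in ROS+++ cells. These levels rest on the exon lengths of GENCODE M21 and take no account of which transcripts were present.

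**Figure D2:**
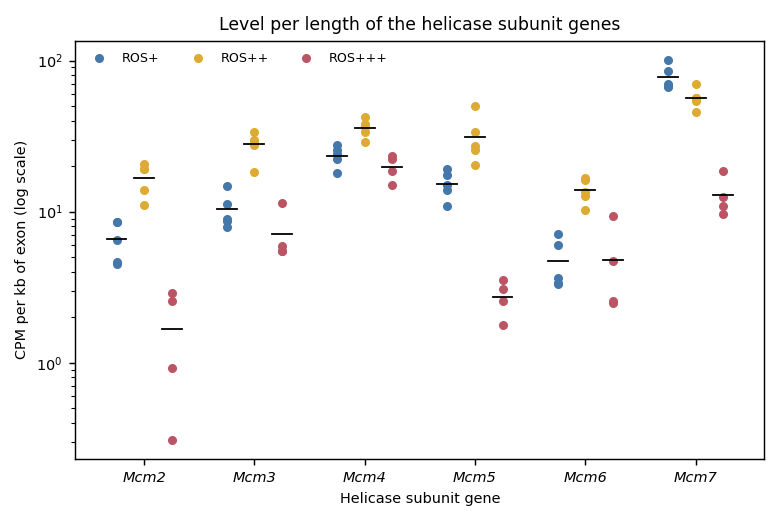
Level of each helicase gene per kb of exon (log axis) in each library (points, coloured by class) with class means as short lines. Mcm7 stands highest in ROS+ and ROS++ and drops to 12.9 CPM per kb in ROS+++, below Mcm4 at 19.8.

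Genes that license and fire origins had the largest median differences of the 7 roles in both comparisons with ROS++. The medians were 1.72 in ROS++ against ROS+ and -2.85 in ROS+++ against ROS++. In ROS++ cells, 5 of 6 were higher than in ROS+ cells (16.4% of all tested genes). In ROS+++ cells, 6 of 6 were lower than in ROS++ cells (29.2% of all tested genes). Cdc6 (ENSMUSG00000017499, chr11:98907801-98923940), whose upstream stretch is printed above, had 20.1, 10.3, 6.78, 10.1 and 0.141 CPM in ROS+ libraries, 37.5, 38.9, 37.3, 34.4 and 73.2 CPM in ROS++ libraries, and 4.58, 0, 0.381 and 0.157 CPM in ROS+++ libraries. ROS++ libraries were above all others, 1 ROS+ library was as low as the ROS+++ libraries, and 1 ROS+++ library stood above its class. The difference between ROS++ and ROS+ was the largest of any member, at 2.53 ± 0.63 (adjusted p = 0.00519), and that between ROS+++ and ROS++ was -4.65 ± 0.67 (adjusted p = 3.30e-05). The first of these did not pass on the log2 values as deposited, whose smaller prior gives more weight to the lowest libraries (3.12, adjusted p = 0.0638). The difference of -2.12 ± 0.67 between ROS+++ and ROS+ (adjusted p = 0.0114) did not pass with limma-voom (-3.98, adjusted p = 0.0936).

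Dtl had 15.9, 22.1, 7.40, 18.4 and 10.2 CPM in ROS+ libraries, 50.1, 32.2, 42.6, 25.5 and 37.8 CPM in ROS++ libraries, and 1.29, 0.687, 2.19 and 0.472 CPM in ROS+++ libraries. The classes did not overlap, and ROS+++ differed by -2.84 ± 0.36 from ROS+ (adjusted p = 2.51e-06) and by -4.19 ± 0.36 from ROS++ (adjusted p = 1.73e-07). Gmnn encodes geminin, which binds Cdt1 and blocks a second round of licensing, and it accumulates as protein after S phase begins. It had 6.28, 5.23, 11.6, 14.1 and 1.22 CPM in ROS+ libraries, 36.5, 29.9, 42.6, 27.0 and 21.8 CPM in ROS++ libraries, and 23.5, 11.9, 1.38 and 8.34 CPM in ROS+++ libraries. ROS++ was above ROS+ in every library, but ROS+++ library 1 reached into the ROS++ range. The difference of -1.79 ± 0.58 between ROS+++ and ROS++ (adjusted p = 0.0211) did not pass without ROS+++ library 3, the lowest of its class (-1.15, adjusted p = 0.0941). The difference of 0.35 ± 0.58 between ROS+++ and ROS+ did not pass (adjusted p = 0.624) and turned negative without ROS+ library 5 (-0.07) or without ROS+++ library 1 (-0.12).

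The other licensing and firing genes had the same order of means. Cdt1, the partner of Cdc6 in loading, averaged 3.33 ± 1.37 CPM in ROS+ libraries, 10.7 ± 5.47 CPM in ROS++ libraries and 1.51 ± 1.17 CPM in ROS+++ libraries. Cdc45, which joins the helicase to form the active motor, averaged 15.8 ± 5.40, 25.4 ± 8.57 and 2.43 ± 2.43 CPM. Cdc45 was the member of this role that did not pass between ROS++ and ROS+ (0.63 ± 0.42, adjusted p = 0.277), and it differed by -2.53 ± 0.44 between ROS+++ and ROS+ (adjusted p = 9.32e-05). Cdt1 did not pass in that comparison (-0.86 ± 0.43, adjusted p = 0.0956) and passed without ROS+++ library 2 (-1.13, adjusted p = 0.0436). Gins2, a subunit of the GINS complex that travels with the helicase, averaged 7.06 ± 3.54 CPM in ROS+ libraries, 33.3 ± 15.4 CPM in ROS++ libraries and 6.51 ± 4.41 CPM in ROS+++ libraries. Of its 3900 exon bases, 2758 overlap exons of Gse1 on the other strand, so its level is uncertain. On the log2 values as deposited, neither Cdt1 (1.60, adjusted p = 0.0666) nor Gins2 (2.24, adjusted p = 0.161) passed between ROS++ and ROS+. The main test gave 1.36 ± 0.41 (adjusted p = 0.0171) for Cdt1 and 2.07 ± 0.55 (adjusted p = 0.00844) for Gins2. The Gins2 difference between ROS+++ and ROS+ was -0.45 ± 0.59 (adjusted p = 0.523) and turned positive, at 0.36, without ROS+++ library 4, in which it had 0 reads.

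**Figure D3:**
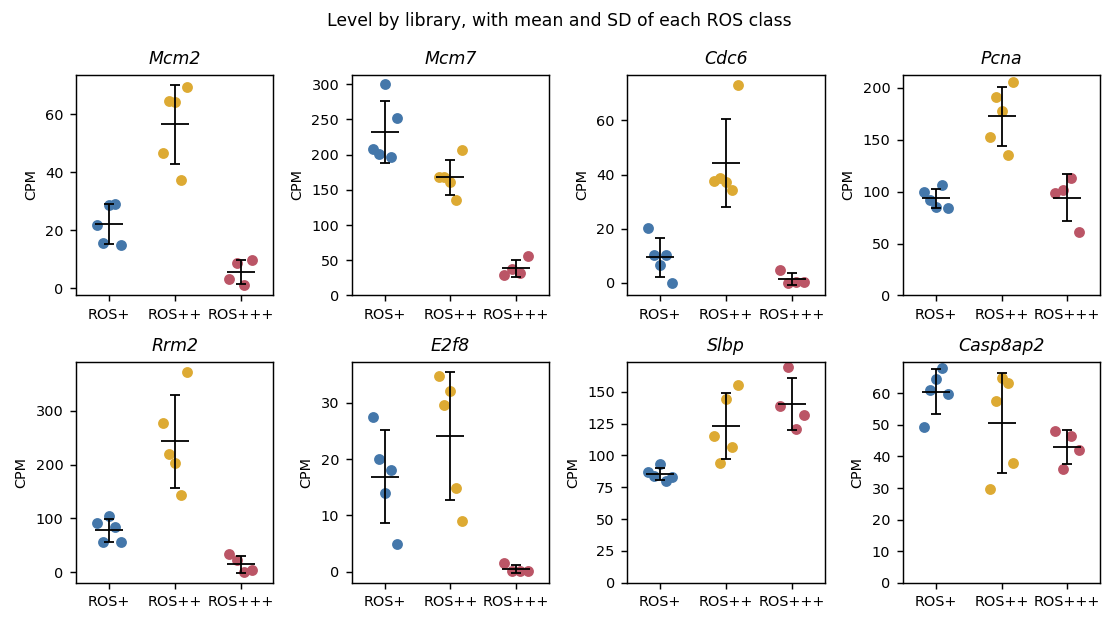
Level in CPM of 8 genes in each library (points) with class mean and SD (bars), for ROS+, ROS++ and ROS+++ in that order. Mcm2, Cdc6, Pcna, Rrm2 and E2f8 peak in ROS++, Mcm7 is highest in ROS+, Slbp is lowest in ROS+, and Casp8ap2 overlaps between ROS++ and both other classes.

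At the fork itself the median differences were the smallest of the 7 roles in both comparisons of ROS+++ with another class. In ROS++ against ROS+, the median was below those of the helicase and licensing genes but not the lowest of the roles. Of 10 genes, 5 were higher in ROS++ than in ROS+ cells, 3 were lower in ROS+++ than in ROS+ cells and 8 were lower in ROS+++ than in ROS++ cells, with medians of 0.62, -0.48 and -1.10. The 3 of 10 lower in ROS+++ than in ROS+ cells are a smaller share than the 40.0% of all tested genes. Among all tested genes, 16.4% were higher in ROS++ than in ROS+ and 29.2% lower in ROS+++ than in ROS++. Prim1, the catalytic subunit of primase, had 40.5, 68.0, 56.4, 51.0 and 50.1 CPM in ROS+ libraries, 75.0, 98.3, 85.6, 51.9 and 109.7 CPM in ROS++ libraries, and 18.1, 25.5, 24.95 and 11.8 CPM in ROS+++ libraries. All ROS+++ libraries lay below the others, at -1.40 ± 0.25 against ROS+ (adjusted p = 0.000121) and -2.03 ± 0.25 against ROS++ (adjusted p = 7.38e-06), while ROS++ and ROS+ overlapped. The difference of 0.63 ± 0.24 between ROS++ and ROS+ did not pass (adjusted p = 0.0538), but it did in 9 of 26 alternatives. Among these were the ones without ROS+ library 2 (adjusted p = 0.0455), ROS++ library 4 (adjusted p = 0.018) or ROS+++ library 3 or 4 (adjusted p = 0.0498 and 0.0303). Pola1, the catalytic subunit of the polymerase that works with primase, had the same order, with means of 24.2 ± 4.95 CPM in ROS+ libraries, 35.9 ± 6.61 CPM in ROS++ libraries and 8.61 ± 3.73 CPM in ROS+++ libraries. It showed a difference of -2.02 ± 0.29 between ROS+++ and ROS++ (adjusted p = 3.07e-05).

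For the sliding clamp, its loader and a polymerase subunit, ROS++ cells had the highest level, and no difference between ROS+++ and ROS+ cells passed the test. Pcna, the clamp, averaged 93.5 ± 9.40 CPM in ROS+ libraries, 173 ± 28.5 CPM in ROS++ libraries and 94.0 ± 22.5 CPM in ROS+++ libraries. It differed by 0.87 ± 0.16 between ROS++ and ROS+ (adjusted p = 0.000531) and by -0.89 ± 0.17 between ROS+++ and ROS++ (adjusted p = 0.000527). The difference of -0.02 ± 0.17 between ROS+++ and ROS+ did not pass (adjusted p = 0.921). Its sign turned with the other scaling factors (0.27 to 0.42), with limma-voom, and without ROS+ library 1, ROS+ library 4 or ROS+++ library 4 (up to 0.17). Reads of the pseudogenes Pcna-ps1 and Pcna-ps2 could have been counted with it. Rfc2, a subunit of the clamp loader, averaged 88.9 ± 1.88 CPM in ROS+ libraries, 130.3 ± 34.2 CPM in ROS++ libraries and 77.3 ± 15.9 CPM in ROS+++ libraries. Its rise of 0.51 ± 0.16 in ROS++ against ROS+ (adjusted p = 0.0259) was lost without ROS++ library 3 (0.48, adjusted p = 0.0578) or library 5 (0.38, adjusted p = 0.0666). Its difference of -0.73 ± 0.17 between ROS+++ and ROS++ (adjusted p = 0.00294) did not pass with relative log expression factors (-0.32, adjusted p = 0.176) or TMM factors (-0.40, adjusted p = 0.0811). It shares 952 of 4995 exon bases with Lat2 on the other strand. Pold3, an accessory subunit of the lagging-strand polymerase, averaged 39.2 ± 6.62 CPM in ROS+ libraries, 62.8 ± 23.7 CPM in ROS++ libraries and 31.4 ± 9.21 CPM in ROS+++ libraries. Its difference of -0.95 ± 0.26 between ROS+++ and ROS++ (adjusted p = 0.00686) did not pass with any of the 3 other scaling factors (-0.67 to -0.54). The difference between ROS++ and ROS+ did not pass with all libraries (0.61 ± 0.24, adjusted p = 0.0661) and passed without ROS++ library 4 (0.72, adjusted p = 0.041).

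Rpa2, a subunit of the complex that coats unwound DNA, and Tipin and Clspn, which steady the fork and pass its signals to the checkpoint, were higher in ROS++ than in both other classes. Rpa2 averaged 52.0 ± 10.9 CPM in ROS+ libraries, 101 ± 16.7 CPM in ROS++ libraries and 40.3 ± 20.2 CPM in ROS+++ libraries. It did not pass between ROS+++ and ROS+ (-0.44 ± 0.24, adjusted p = 0.124) but did without ROS+++ library 1 (-0.74, adjusted p = 0.00393). Tipin averaged 90.2 ± 9.63, 145 ± 18.2 and 64.7 ± 19.9 CPM in the same order of classes. Its difference of -0.52 ± 0.18 between ROS+++ and ROS+ (adjusted p = 0.0193) was lost without ROS+++ library 4 (-0.33, adjusted p = 0.0901) and with each of the other scaling factors (-0.22 to -0.08). Clspn averaged 5.93 ± 4.14, 24.9 ± 12.2 and 2.09 ± 2.38 CPM. Clspn differed by 1.98 ± 0.51 between ROS++ and ROS+ (adjusted p = 0.00678). Between ROS+++ and ROS+ it passed without ROS+ library 2 (-1.49), ROS+ library 5 (-1.39) or ROS+++ library 1 (-1.67) and not with all libraries (-1.21 ± 0.54, adjusted p = 0.0629).

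Fen1, which trims the ends of lagging-strand fragments, and Dscc1, a subunit of an alternative clamp loader, did not pass any of the main tests. Fen1 had 1.07, 0.912, 1.56, 1.11 and 1.31 CPM in ROS+ libraries, 1.36, 1.82, 0.597, 1.02 and 2.73 CPM in ROS++ libraries, and 0.525, 0.687, 0.857 and 1.10 CPM in ROS+++ libraries. The classes overlapped throughout. Exons of Gm10143 and Tmem258 on the other strand overlap those of Fen1. The larger of these overlaps covers 1908 of the 2422 exon bases of Fen1, so the values for Fen1 are uncertain. Dscc1 ranged from 1.22 to 7.55 CPM in ROS+ libraries, from 0.600 to 10.9 CPM in ROS++ libraries and from 0 to 2.72 CPM in ROS+++ libraries. With a block for sets of libraries with consecutive numbers, which no label calls pairs, Dscc1 passed between ROS+++ and ROS+ (-1.29, adjusted p = 0.0239).

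Nucleotide supply fell in ROS+++ cells for 3 of 3 genes against both other classes. Among all tested genes, 40.0% were lower against ROS+ and 29.2% against ROS++. Rrm2 (ENSMUSG00000020649, chr12:24708241-24714146), whose product is made in S phase and sets the activity of ribonucleotide reductase, had 91.3, 56.1, 104, 83.9 and 55.5 CPM in ROS+ libraries, 277, 220.1, 202, 144 and 372 CPM in ROS++ libraries, and 33.3, 22.0, 0.0952 and 3.23 CPM in ROS+++ libraries. The classes did not overlap, and in log2(CPM + 1) the ROS+++ libraries differed among themselves more than those of the other classes. The difference between ROS+++ and ROS++ was the largest of any member, at -4.90 ± 0.79 (adjusted p = 0.000329). The difference of 1.60 ± 0.75 between ROS++ and ROS+ did not pass with all libraries (adjusted p = 0.131) although every ROS++ library lay above every ROS+ library. It passed without ROS+++ library 3 (adjusted p = 0.0147) and with the ROS++ and ROS+ libraries fitted alone (adjusted p = 0.00012), since all 3 classes share 1 estimate of the spread.

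Rrm1, the larger and steadier subunit of the same enzyme, had 169, 147, 152, 141 and 128 CPM in ROS+ libraries, 193, 215, 172, 144 and 263 CPM in ROS++ libraries, and 51.7, 55.9, 56.1 and 58.8 CPM in ROS+++ libraries. The ROS+++ libraries lay within a narrow band below all others, at -1.39 ± 0.15 against ROS+ (adjusted p = 4.94e-07) and -1.78 ± 0.15 against ROS++ (adjusted p = 1.73e-07). The rise of 0.40 ± 0.14 in ROS++ against ROS+ (adjusted p = 0.0453) did not pass in 10 of 26 alternatives. Among these were the ones without ROS+ library 2, 3, 4 or 5, without ROS++ library 1, 2 or 5 and without ROS+++ library 2, with values from 0.29 without ROS++ library 5 to 0.41 without ROS+ library 3. Tyms, thymidylate synthase, averaged 75.7 ± 16.2 CPM in ROS+ libraries, 103 ± 29.6 CPM in ROS++ libraries and 23.3 ± 15.6 CPM in ROS+++ libraries. It differed by 0.42 ± 0.33 between ROS++ and ROS+, which did not pass (adjusted p = 0.358), and by -1.88 ± 0.35 between ROS+++ and ROS+ (adjusted p = 0.000156). Reads of the pseudogene Tyms-ps could have been counted with it.

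Among 5 genes of repair at the fork, 0 passed in limma between ROS++ and ROS+ cells. At an unadjusted p under 0.05, 2 of them (Ung and Rad51ap1) were higher in ROS++, and limma-voom called 2. Of the 5, 2 were lower in ROS+++ than in ROS+ cells, the same share as the 40.0% of all tested genes. In ROS+++ against ROS++ cells, 3 were lower (29.2% of all tested genes). Rad51ap1, which takes part in homologous recombination, had 24.8, 24.2, 17.7, 23.1 and 15.95 CPM in ROS+ libraries, 26.4, 77.7, 67.3, 38.4 and 64.1 CPM in ROS++ libraries, and 9.64, 10.99, 0.190 and 0.236 CPM in ROS+++ libraries. The classes did not overlap, ROS+++ libraries 3 and 4 were far below libraries 1 and 2, and the difference between ROS+++ and ROS++ was -3.81 ± 0.60 (adjusted p = 8.25e-05). The difference of 1.25 ± 0.56 between ROS++ and ROS+ did not pass (adjusted p = 0.108). It passed with those 2 classes fitted alone (adjusted p = 0.00304), with limma-voom (adjusted p = 0.0143) and with a pseudocount of 4 CPM (adjusted p = 0.0214). Exo1, an exonuclease of mismatch repair and fork resection, averaged 4.30 ± 1.16 CPM in ROS+ libraries, 9.55 ± 5.74 CPM in ROS++ libraries and 1.09 ± 1.60 CPM in ROS+++ libraries. It differed by -2.41 ± 0.47 between ROS+++ and ROS++ (adjusted p = 0.000608). Usp1, which removes ubiquitin from the clamp, averaged 16.4 ± 4.51, 26.7 ± 7.52 and 11.6 ± 6.66 CPM. Its difference of -1.30 ± 0.37 between ROS+++ and ROS++ (adjusted p = 0.00929) just missed with relative log expression factors (-0.91, adjusted p = 0.0503).

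Blm, a helicase that unwinds recombination intermediates, had 8.14, 14.4, 27.5, 11 and 16.8 CPM in ROS+ libraries, 9.22, 7.19, 12.8, 4.70 and 11.6 CPM in ROS++ libraries, and 9.83, 8.196, 8.62 and 5.35 CPM in ROS+++ libraries. The highest values were in ROS+ libraries, the classes overlapped, and the difference of -0.67 ± 0.35 between ROS++ and ROS+, the lowest of any member in that comparison, did not pass (adjusted p = 0.157). Against ROS+, the ROS+++ difference of -0.80 ± 0.37 (adjusted p = 0.07) passed without ROS+ library 1 (-0.99, adjusted p = 0.0331). Ung, which removes uracil from DNA, ranged from 0.0446 to 3.62 CPM in ROS+ libraries, from 1.41 to 12.8 CPM in ROS++ libraries and from 0.382 to 3.46 CPM in ROS+++ libraries. It passed the F-test (adjusted p = 0.0478), but none of the comparisons between classes passed. The one between ROS++ and ROS+ (1.36 ± 0.51, adjusted p = 0.0541) did so without ROS++ library 1, ROS+ library 2, ROS+ library 4 or ROS+++ library 4 (1.36 to 1.65). The one between ROS+++ and ROS++ (-1.30 ± 0.54, adjusted p = 0.0671) passed without ROS++ library 1 (-1.59) or ROS+++ library 4 (-1.64). Its difference of 0.06 ± 0.54 between ROS+++ and ROS+ (adjusted p = 0.932) changed sign without ROS+ library 1, 3 or 5 or without ROS+++ library 4, down to -0.28.

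Genes that copy chromatin behind the fork were split. Of 9, 4 were higher in ROS++ than in ROS+ cells (16.4% of all tested genes). In ROS+++ against ROS+ cells, 7 were lower and 1 higher (40.0% and 19.2% of all tested genes). In ROS+++ against ROS++ cells, 7 were lower (29.2% of all tested genes). Chaf1b, a subunit of the chaperone that places histones on new DNA, had 29.6, 18.8, 17.8, 15.3 and 11.8 CPM in ROS+ libraries, 30.0, 31.2, 31.1, 33.4 and 29.1 CPM in ROS++ libraries, and 2.72, 4.47, 0.333 and 0.236 CPM in ROS+++ libraries. The ROS++ libraries were nearly level, ROS+ library 1 reached them, and all ROS+++ libraries lay below, at -2.97 ± 0.41 against ROS+ (adjusted p = 6.94e-06) and -3.73 ± 0.41 against ROS++ (adjusted p = 2.10e-06). Uhrf1, whose upstream stretch is printed above, averaged 16.9 ± 3.66 CPM in ROS+ libraries, 52.7 ± 20.02 CPM in ROS++ libraries and 3.80 ± 2.65 CPM in ROS+++ libraries and differed by -3.61 ± 0.41 between ROS+++ and ROS++ (adjusted p = 3.11e-06). Hells, a remodeller needed for DNA methylation, and Cdca7, its partner, averaged 13.4 ± 2.84 and 32.4 ± 7.59 CPM in ROS+ libraries, 32.3 ± 6.62 and 72.5 ± 34.9 CPM in ROS++ libraries, and 5.45 ± 1.46 and 9.42 ± 5.92 CPM in ROS+++ libraries. Hells was 1.21 ± 0.26 higher in ROS++ than in ROS+ (adjusted p = 0.00156), and Cdca7 did not pass in that comparison (1.06 ± 0.43, adjusted p = 0.0735) but passed without ROS+++ library 4 (adjusted p = 0.00669).

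Atad2, a chromatin ATPase with a bromodomain, averaged 26.3 ± 6.22 CPM in ROS+ libraries, 58.3 ± 11.1 CPM in ROS++ libraries and 10.2 ± 3.60 CPM in ROS+++ libraries. It passed in all 3 comparisons, with 1.14 ± 0.25 between ROS++ and ROS+ (adjusted p = 0.00208). Nasp, a chaperone that stores histones H3 and H4, averaged 172 ± 12.3, 184 ± 45.7 and 69.8 ± 21.7 CPM in the same order of classes. It differed by 0.07 ± 0.19 between ROS++ and ROS+ (adjusted p = 0.831), which turned to -0.06 without ROS++ library 5, and by -1.41 ± 0.20 between ROS+++ and ROS++ (adjusted p = 2.89e-05). Nasp-ps1 is an annotated pseudogene of it. Wdr76, a WD-repeat protein, averaged 21.1 ± 3.97, 25.4 ± 5.19 and 11.4 ± 5.35 CPM. Its difference of -0.93 ± 0.30 between ROS+++ and ROS+ (adjusted p = 0.0137) was lost without ROS+++ library 3 (-0.63, adjusted p = 0.062) and with the other scaling factors (-0.66 to -0.53).

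The 2 genes of this role for which no fall between ROS+++ and ROS++ passed the test act on replication-dependent histone mRNA. Slbp (ENSMUSG00000004642, chr5:33634952-33652574) encodes the protein that binds the stem-loop at the end of those mRNAs. It had 86.8, 83.5, 93.6, 80.3 and 83.1 CPM in ROS+ libraries, 115, 94.3, 145, 106 and 155 CPM in ROS++ libraries, and 139, 169, 121 and 132 CPM in ROS+++ libraries. All ROS++ and ROS+++ libraries lay above all ROS+ libraries, by 0.50 ± 0.14 in ROS++ (adjusted p = 0.014) and 0.70 ± 0.15 in ROS+++ (adjusted p = 0.000781), the highest difference of any member between ROS+++ and ROS+. ROS+++ and ROS++ overlapped and differed by 0.20 ± 0.15 (adjusted p = 0.317), which passed with relative log expression (0.62, adjusted p = 0.00491), upper-quartile (0.48, adjusted p = 0.0197) and TMM factors (0.53, adjusted p = 0.0121). Of the 2645 exon bases of Slbp, 380 overlap exons of Gm10459 on the other strand, a gene absent from the deposited table. Casp8ap2 encodes FLASH, which takes part in the processing of histone pre-mRNA. It had 49.3, 61.0, 64.4, 68.0 and 59.9 CPM in ROS+ libraries, 29.8, 57.6, 64.7, 63.3 and 38.0 CPM in ROS++ libraries, and 48.0, 35.9, 46.3 and 42.0 CPM in ROS+++ libraries. ROS+++ libraries lay below all ROS+ libraries and overlapped with ROS++, and none of its main tests passed, with -0.48 ± 0.22 between ROS+++ and ROS+ (adjusted p = 0.0683) and -0.18 ± 0.22 between ROS+++ and ROS++ (adjusted p = 0.556). The first of these passed without ROS++ library 1, which enters only through the shared spread (adjusted p = 0.0323). It also passed with those 2 classes fitted alone (adjusted p = 0.0184) and with the block for library sets (-0.60, adjusted p = 0.0142).

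The G1/S cyclins and E2F factors act before the fork exists. They were lower in ROS+++ cells for 4 of 4 genes against both other classes, with no overlap of libraries. Among all tested genes, 40.0% were lower against ROS+ and 29.2% against ROS++. All ROS+++ libraries lay below all ROS+ libraries for 33.2% of all tested genes, and below all ROS++ libraries for 19.5%. Between ROS++ and ROS+ cells 0 of 4 passed in limma, while 1 (Ccne2) was higher in ROS++ at an unadjusted p under 0.05 and limma-voom called 1. E2f8, an atypical E2F that represses E2F targets late in S phase, had 27.5, 20.1, 14.0, 17.99 and 4.83 CPM in ROS+ libraries, 34.8, 29.6, 32.1, 14.9 and 9.06 CPM in ROS++ libraries, and 1.58, 0.147, 0.143 and 0.157 CPM in ROS+++ libraries. The values of ROS+++ libraries 2 to 4 rest on 3, 3 and 2 reads. The difference was -3.49 ± 0.49 against ROS+ (adjusted p = 8.07e-06), the lowest of any member in that comparison, and -4.00 ± 0.49 against ROS++ (adjusted p = 6.05e-06). Of the 3880 exon bases of E2f8, 610 overlap exons of Gm2788 on the other strand, a gene absent from the deposited table. E2f1, an activating E2F, averaged 10.7 ± 2.05 CPM in ROS+ libraries, 11.9 ± 4.51 CPM in ROS++ libraries and 1.12 ± 0.852 CPM in ROS+++ libraries. E2f1 differed by 0.10 ± 0.35 between ROS++ and ROS+ (adjusted p = 0.865), a sign that turned without ROS++ library 1 (-0.07) or ROS+ library 5 (-0.03).

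Ccne1, which encodes cyclin E1, had 10.2, 4.70, 1.69, 2.09 and 0.563 CPM in ROS+ libraries, 2.30, 8.80, 5.37, 7.10 and 4.37 CPM in ROS++ libraries, and 0.143, 0, 0.381 and 0.0787 CPM in ROS+++ libraries. The ROS+++ values are at or near the limit of detection, ROS++ and ROS+ overlapped widely, and the difference between ROS+++ and ROS++ was -2.43 ± 0.49 (adjusted p = 0.000679). Ccne2, for cyclin E2, averaged 21.3 ± 2.44 CPM in ROS+ libraries, 38.6 ± 11.4 CPM in ROS++ libraries and 6.21 ± 3.21 CPM in ROS+++ libraries. Its difference of 0.78 ± 0.33 between ROS++ and ROS+ did not pass (adjusted p = 0.0824) and passed without ROS++ library 3 (0.96, adjusted p = 0.0439) or ROS+++ library 3 (adjusted p = 0.0211). Of the 3200 exon bases of Ccne2, 336 overlap exons of Ints8 on the other strand.

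**Figure D4:**
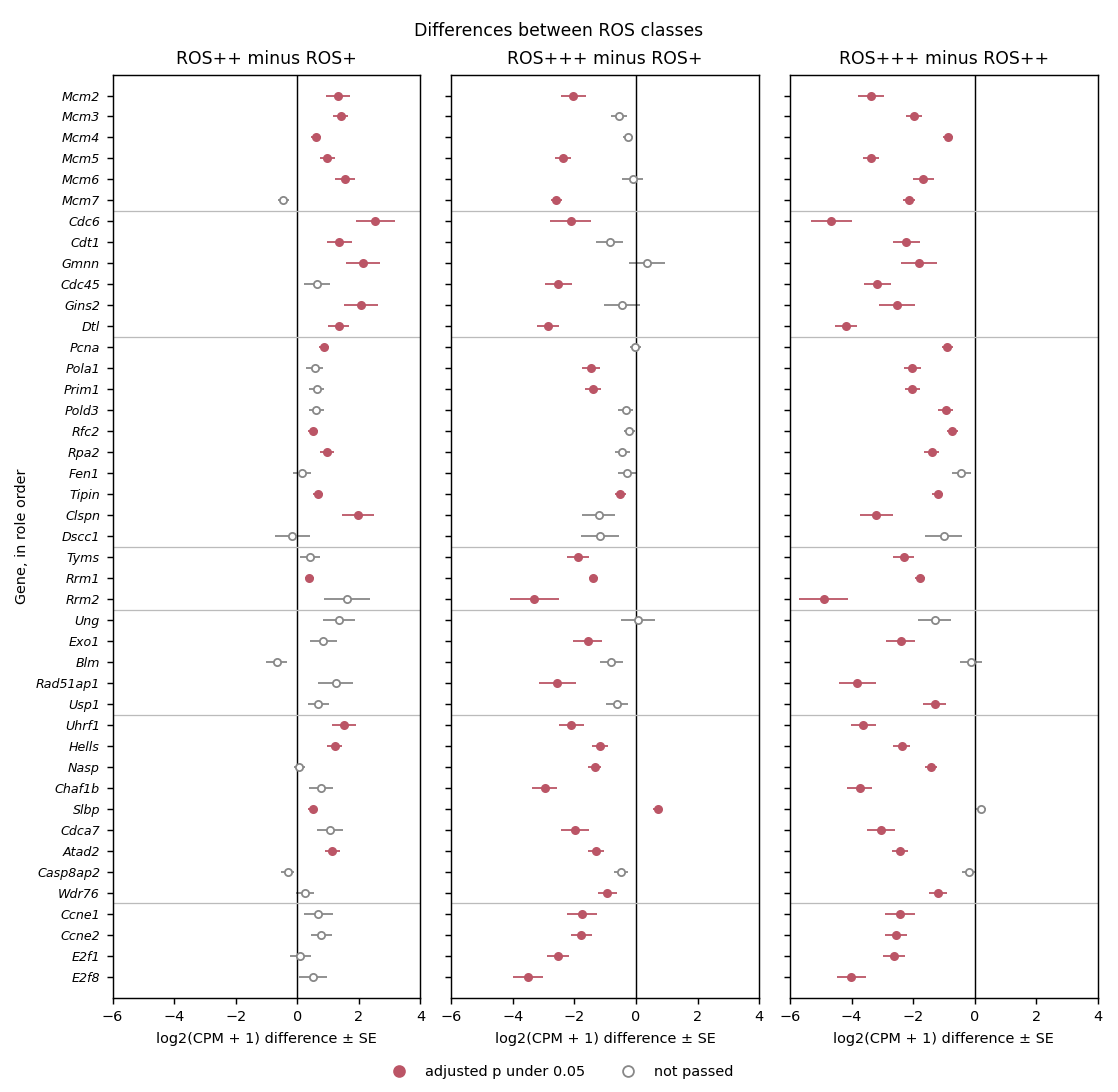
Difference in log2(CPM + 1) with its standard error (bars) for each of 43 genes in 3 panels, from left to right ROS++ minus ROS+, then ROS+++ minus ROS+, then ROS+++ minus ROS++, with filled red points for an adjusted p under 0.05. Most points lie right of 0 in the ROS++ minus ROS+ panel (39 of 43) and left of 0 in the ROS+++ minus ROS++ panel (42 of 43).

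Other genes of the replication pathway showed the same directions with smaller shares. Of 48 further replication genes, 12 were higher and 3 lower in ROS++ than in ROS+ cells (16.4% and 13.2% of all tested genes). In ROS+++ against ROS+ cells, 3 were higher and 26 lower (19.2% and 40.0% of all tested genes). In ROS+++ against ROS++ cells, 3 were higher and 30 lower (9.89% and 29.2% of all tested genes). The medians were 0.34, -0.81 and -1.22, against -0.03, -0.44 and -0.34 for all tested genes. Rfc4, another clamp loader subunit, differed by 0.96 ± 0.15 between ROS++ and ROS+ (adjusted p = 0.000101) and by -1.57 ± 0.16 between ROS+++ and ROS++ (adjusted p = 1.01e-06). Tk1, thymidine kinase, differed by 2.08 ± 0.35 between ROS++ and ROS+ (adjusted p = 0.000183). Wdhd1, which links the helicase to the primase, differed by -2.75 ± 0.29 between ROS+++ and ROS++ (adjusted p = 1.77e-06), and Lig1, which seals lagging-strand fragments, by -2.40 ± 0.26 (adjusted p = 2.28e-06). Some genes went the other way. Orc3, Orc4 and Mcmbp were lower in ROS++ than in ROS+ cells, with Orc4, a subunit of the origin recognition complex, at -0.995 ± 0.17 (adjusted p = 0.000212). Pola2, Pole4 and Pold4 were higher in ROS+++ than in ROS+ cells, and Pold4, a small polymerase delta subunit, was at 1.72 ± 0.22 (adjusted p = 2.58e-06). Orc4, Pole4 and Pold4 were also higher in ROS+++ than in ROS++ cells.

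In the list of 29 genes of G1/S control, 9 were higher and 2 lower in ROS++ than in ROS+ cells (16.4% and 13.2% of all tested genes). In ROS+++ against ROS+ cells, 2 were higher and 12 lower (19.2% and 40.0% of all tested genes). In ROS+++ against ROS++ cells, 1 was higher and 14 lower (9.89% and 29.2% of all tested genes). The count of 12 of 29 is near the 40.0% of all tested genes that were lower in ROS+++ than in ROS+ cells, and is not a result about this list. Ccnd2, for cyclin D2, differed by 0.88 ± 0.19 between ROS++ and ROS+ (adjusted p = 0.00153). Cdk4, the kinase of the D cyclins, was lower in ROS++ than in ROS+ cells (-0.37 ± 0.11, adjusted p = 0.0141) and lower again in ROS+++ than in ROS++ cells (-1.51 ± 0.11, adjusted p = 6.03e-08). Skp2, which targets p27 for destruction, differed by -3.18 ± 0.36 between ROS+++ and ROS++ (adjusted p = 2.87e-06). Cdkn1a, the inhibitor p21, went against the list, at 2.20 ± 0.45 between ROS+++ and ROS+ (adjusted p = 0.00039) and 1.24 ± 0.45 between ROS+++ and ROS++ (adjusted p = 0.0346), and Ccnd3 was also higher in ROS+++ than in ROS+ cells. Cdkn1b, the inhibitor p27, was lower in ROS++ than in ROS+ cells (-0.68 ± 0.17, adjusted p = 0.00493).

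Genes of G2 and mitosis, which follow S phase, were higher in ROS++ than in ROS+ cells for 23 of 36 (16.4% of all tested genes). They were lower in ROS+++ than in ROS+ cells for 20 of 36 (40.0% of all tested genes). In ROS+++ against ROS++ cells, 36 of 36 were lower (29.2% of all tested genes). The medians were 1.83, -1.87 and -3.94, against -0.03, -0.44 and -0.34 for all tested genes. Cdca8, a subunit of the complex that corrects chromosome attachment, differed by -4.66 ± 0.47 between ROS+++ and ROS++ (adjusted p = 1.01e-06).

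The libraries of a class were not alike in the balance of these genes. The 43 S-phase genes summed to 1817, 1772, 1987, 1872 and 1621 CPM in ROS+ libraries 1 to 5, to 2739, 2987, 2949, 2286 and 3604 CPM in ROS++ libraries 1 to 5, and to 1111, 1003, 847 and 865 CPM in ROS+++ libraries 1 to 4. The 36 G2 and mitosis genes summed to 985, 299, 1052, 1156 and 145 CPM in ROS+ libraries, to 1545, 2185, 2847, 1601 and 2239 CPM in ROS++ libraries and to 364, 158, 93.2 and 80.3 CPM in ROS+++ libraries. The S-phase sums did not overlap between classes, while the mitotic sums of ROS+ libraries 2 and 5 lay far below those of libraries 1, 3 and 4 and within the ROS+++ range. The ratio of the S-phase sum to the mitotic sum was 1.85, 5.92, 1.89, 1.62 and 11.2 in ROS+, 1.77, 1.37, 1.04, 1.43 and 1.61 in ROS++, and 3.05, 6.35, 9.08 and 10.8 in ROS+++ libraries. The sums weight genes with high levels, and the gene with the highest mean was Mcm7 in ROS+ cells, Rrm2 in ROS++ cells and Slbp in ROS+++ cells.

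**Figure D5:**
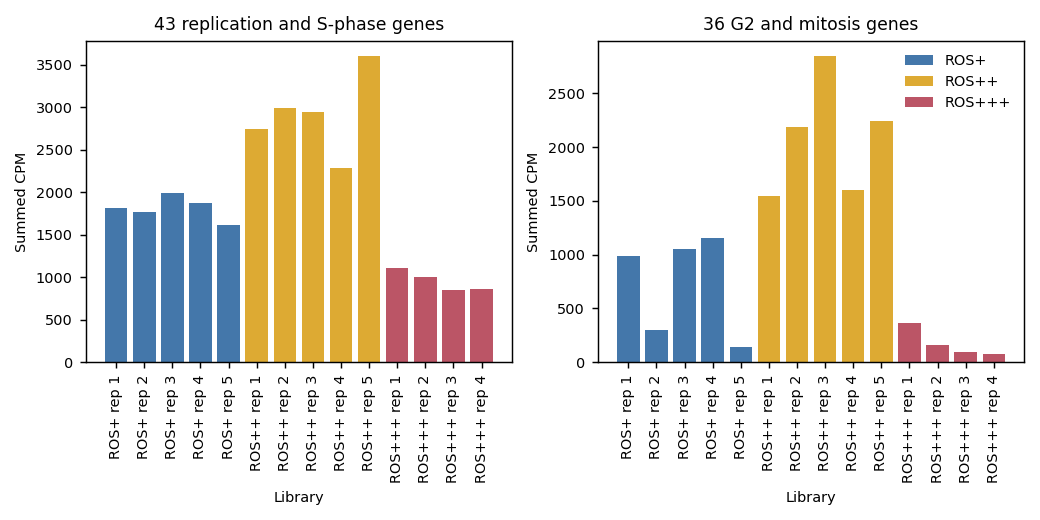
Summed CPM of the 43 S-phase genes (left) and of 36 G2 and mitosis genes (right) in each library, coloured by class. S-phase sums lie at 1621 to 1987 CPM for ROS+, 2286 to 3604 CPM for ROS++ and 847 to 1111 CPM for ROS+++, and the mitotic sums of ROS+ libraries 2 and 5 are 299 and 145 CPM.

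Single libraries also held many of the extremes. ROS+ library 5 was the lowest of its class for 19 of 43 members and the highest for 0, and ROS+ library 4 was the highest for 19. ROS++ library 5 was the highest of its class for 19 members and library 4 the lowest for 17, and ROS+++ library 1 was the highest for 19 and library 4 the lowest for 16. Without ROS+ library 5, 19 members were called between ROS++ and ROS+, 27 between ROS+++ and ROS+ and 37 between ROS+++ and ROS++. With any 1 library left out, all genes called numbered 3634 to 4626, 8290 to 9204 and 5053 to 6148 in these comparisons. ROS+++ library 4 had the fewest reads, 12704227, and 7 members with 3 reads or fewer. The number of members under 1 CPM was 0 to 3 for ROS+ libraries, 0 to 1 for ROS++ libraries and 5 to 12 for ROS+++ libraries. The median SD of a member's log2(CPM + 1) over the libraries of a class was 0.31 in ROS+, 0.41 in ROS++ and 0.61 in ROS+++ cells. That of all tested genes was 0.31, 0.46 and 0.45, so that the median member varied more than the median gene in ROS+++, less in ROS++ and about as much in ROS+.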

How the data were processed

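Dissociated dentate gyrus cells were sorted on GFP and dihydroethidium, and cDNA was made from poly-dT primers with template switching, amplified and sheared, per the labels' protocols. The steps described keep no strand and add no molecular identifiers. The authors deposited a single matrix of log2 values, with 15119 genes and 14 libraries. Per the submitters' processing notes, the tools were STAR and edgeR and the build mm10. The counting tool and annotation: not given in the sources used here. These deposited log2 values, after subtraction of the shared lowest value of -4.36, are whole multiples of 1 read within 1.62e-08 reads, so reads were recovered and divided by each library's total to give CPM. Every listed gene has at least 82 reads in all, so a filter on low genes may precede the table.

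The recovered reads were not tested with edgeR, and limma-voom was run on them as an alternative. Log2(CPM + 1) was fitted for all genes with at least 1 CPM in at least 4 libraries (15102 kept, 17 removed), with 1 mean per class, 14 libraries and 11 residual degrees of freedom, by limma 3.58.1 with trend and robust settings (statmod 1.5.0, R 4.3.3), tested on simulated data first. Calls are at a Benjamini-Hochberg adjusted p under 0.05 over all tested genes. The deposited table lists genes by Ensembl identifier, and symbols, coordinates (GRCm38) and exon lengths came from GENCODE M21. Promoter sequences are RefSeq's on GRCm38.p6. Replicate numbers follow the order of samples in the series and pair nothing. The members and all gene lists were chosen with earlier results of these data known, so that the directions described are not independent evidence. Values in every library are given for the members with the smallest and the largest F-test p in each role, for Mcm2 to Mcm7 and for members at the ends of a comparison's range, and other genes of a pathway are named where their test statistic was among the 3 largest of a list or went against its majority. Alternatives were other scaling factors, pseudocounts, filters, limma-voom, no robust settings, 2 classes alone, a block of library sets and each library left out.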

Additional observations from a re-analysis of the deposited data

Results flagged for a closer look

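Of 129 groups of 4 or 5 libraries (43 genes in 3 classes), 7 held a library that stood apart from the others of its class by more than Dixon's 95% critical value for the gap over the range, and chance flags about 1 in 20 groups. Mcm3 in ROS+++ library 2 was at 34.4 CPM, where the other libraries of the class had 16.6 to 18.1 CPM. Rfc2 was at 101 CPM in the same library, against 67.2 to 71.4 CPM in the others. Cdc6 in ROS++ library 5 was at 73.2 CPM, against 34.4 to 38.9 CPM in the others. Gins2 in ROS+++ library 4 was at 0 CPM, against 7.67 to 9.59 CPM in the others, and a count of 0 in this library allows up to 0.236 CPM. E2f8 in ROS+++ library 1 was at 1.58 CPM, against 0.143 to 0.157 CPM in the others. Atad2 in ROS+ library 2 was at 15.2 CPM, against 28.1 to 30.0 CPM in the others, and E2f1 in ROS+ library 5 was at 7.08 CPM, against 11.1 to 12.2 CPM. What set these libraries apart was not tested.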

How the results depend on the processing

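The number of members called stayed within 1.5 times under all alternatives run, at 17 to 29 between ROS++ and ROS+ (main 20), 24 to 28 between ROS+++ and ROS+ (main 26), 34 to 38 between ROS+++ and ROS++ (main 37) and 35 to 40 in the F-test (main 39). With each library left out, the counts were 19 to 24, 25 to 28, 36 to 38 and 38 to 39. Under all alternatives, all genes called numbered 3634 to 4870, 7921 to 9204 and 4870 to 6148 in the 3 comparisons (main 4476, 8947 and 5898). All genes called higher in ROS+++ than in ROS++ numbered 1493, and 2825 with relative log expression or 2461 with TMM factors. No called member changed sign. Uncalled differences that did are as follows, and the cause was not tested. Between ROS+++ and ROS+, with relative log expression, upper-quartile and TMM factors in turn, Mcm4 was at 0.19, 0.042 and 0.12 and Mcm6 at 0.31, 0.17 and 0.25. In the same order, Pcna was at 0.42, 0.27 and 0.35 and Rfc2 at 0.22, 0.074 and 0.16. Pold3 was at 0.092 and 0.031 with the first and last. Pcna was at 0.021 with limma-voom, and Ung at -0.0068 with a pseudocount of 4 CPM and -0.12 with the library set block. Between ROS+++ and ROS++, Blm was at 0.25, 0.13 and 0.17 and Casp8ap2 at 0.23, 0.10 and 0.15 with the 3 factors. With 1 library left out, the range between ROS++ and ROS+ was -0.018 to 0.29 for Fen1, -0.50 to 0.22 for Dscc1, -0.059 to 0.16 for Nasp and -0.074 to 0.24 for E2f1. Between ROS+++ and ROS+ it was -0.49 to 0.12 for Mcm6, -0.12 to 1.00 for Gmnn, -0.77 to 0.36 for Gins2, -0.12 to 0.17 for Pcna and -0.28 to 0.34 for Ung, and between ROS+++ and ROS++ it was -0.31 to 0.034 for Blm. The labels give no shared replicate number. A block for 5 sets of libraries with consecutive numbers, which no label calls pairs, gave 20, 28 and 37 members called in the 3 comparisons and 40 in the F-test. With it Mcm7 between ROS++ and ROS+ (-0.46, adjusted p = 0.0195) and Dscc1 and Casp8ap2 between ROS+++ and ROS+ passed, and Rrm1 between ROS++ and ROS+ did not (0.40, adjusted p = 0.0519). ROS+++ library 4 has the fewest reads, and values under 1 CPM rest on few reads.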
